A study of Mus musculus with 42 samples.

Results

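The livers of 7 mice given water were set against the brown adipose tissue (BAT) of mice given water, with 1 Affymetrix Mouse Genome 430 2.0 array per tissue and mouse. All 14 arrays labelled as liver or BAT of the water group (4 h) were used, out of 42 arrays in the series, which also holds white adipose tissue (WAT) and mice given the amino acid mixture VAAM. The mice were outbred males of the ddY strain on a standard diet, carrying no named mutation or transgene, and they received 37.5 μL of water per g of body weight by feeding tube on each of 5 days. RNA was taken 4 h after the last of these administrations. The paper describes 5-week-old mice, 1 week of acclimation and removal of food on the morning of the last administration. All 45037 probe sets that are not array controls were compared, and 34945 of them name 1 gene alone, which gives 18193 genes. The paper counts 7 mice in the water group and describes the collection of both tissues, so the 14 arrays are not from 14 separate mice. Whether liver and BAT arrays with the same number came from the same mouse is not stated in the labels.

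Liver and BAT do different metabolic work. The hepatocytes of the liver make most plasma proteins, export lipoproteins, supply glucose to the blood, turn nitrogen into urea, make bile acids from cholesterol and oxidize foreign compounds with cytochromes P450. The brown adipocytes of BAT store triacylglycerol in many small droplets and burn fatty acids in dense mitochondria, where uncoupling protein 1 lets protons return without making ATP, so that the energy leaves as heat. *Ahsg*, the plasma glycoprotein fetuin-A, marks hepatocytes, and *Ucp1* marks brown adipocytes.

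The sequences just upstream of a few genes at the ends of the comparison are shown as examples, and they do not stand for all genes at either end. They are the 150 bases before the annotated start in RefSeq (GRCm38.p6), read 5′ to 3′ on the strand of the gene. Capitals mark GTTAAT (part of the site of HNF1, a transcription factor of the liver) or GGGCGG (the GC box bound by Sp1), on either strand.
*Alb*, chr5:90460720-90460869, + strand: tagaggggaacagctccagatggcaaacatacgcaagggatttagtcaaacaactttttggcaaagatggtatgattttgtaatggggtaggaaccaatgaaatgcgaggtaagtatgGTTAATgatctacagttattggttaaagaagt
*Serpina1c*, chr12:103904951-103905100, - strand: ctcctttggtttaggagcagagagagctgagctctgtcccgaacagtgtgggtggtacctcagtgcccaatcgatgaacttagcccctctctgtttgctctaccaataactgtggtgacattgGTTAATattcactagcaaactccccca
*Fabp1*, chr6:71199729-71199878, + strand: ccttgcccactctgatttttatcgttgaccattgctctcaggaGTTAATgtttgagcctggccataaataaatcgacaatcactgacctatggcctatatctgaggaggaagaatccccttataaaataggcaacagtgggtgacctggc
*Prkar2b*, chr12:32061278-32061427, - strand: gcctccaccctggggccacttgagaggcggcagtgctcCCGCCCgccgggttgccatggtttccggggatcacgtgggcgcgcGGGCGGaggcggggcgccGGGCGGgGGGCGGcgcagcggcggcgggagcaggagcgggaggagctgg
*Gpx3*, chr11:54902704-54902853, + strand: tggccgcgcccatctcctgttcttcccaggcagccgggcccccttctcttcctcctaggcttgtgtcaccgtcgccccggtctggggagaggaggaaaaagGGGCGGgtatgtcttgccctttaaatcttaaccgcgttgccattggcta
*Ucp1*, chr8:83290198-83290347, + strand: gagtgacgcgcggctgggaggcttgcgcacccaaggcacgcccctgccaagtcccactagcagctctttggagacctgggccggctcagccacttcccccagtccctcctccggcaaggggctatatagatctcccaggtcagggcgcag

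The first 3 of these genes were high in liver and the last 3 were high in BAT, and *Ucp1* held neither motif in this stretch. Over the 250 bases before the start, RefSeq gave a sequence for 14368 of the 18193 genes. GTTAAT was found for 17% of the 100 genes with the largest differences toward liver, 7% of the 100 with the largest differences toward BAT and 4.68% of all genes. CAAAGTC, a core of the site of HNF4, was found for 13%, 1% and 3.63% of the same 3 sets, and AAGGTCA, a site element of nuclear receptors such as the estrogen-related receptors, for 13%, 2% and 3.46%. CAAAGTC and AAGGTCA can overlap by the letters CA. TATAAA, the TATA box, stood before 24% of the liver set, 13% of the BAT set and 9.01% of all genes. GGGCGG stood before 11% of the liver set, 51% of the BAT set and 49.97% of all genes. The BAT set thus lay at the share of all genes for the GC box, and the liver set below it. TGACGTCA (the cAMP response element) had no match in the liver set, 1% in the BAT set and 2.28% in all genes, and TTGCGCAA (a palindrome bound by C/EBP) had no match in either set of 100 and 0.209% in all genes. Each motif was searched on both strands with no letter changed. The motifs were chosen after the differences were known, and a match is a description of the letters only.

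The arrays were processed within each tissue. The median over all probe sets lay between 6.729 and 6.730 on the 7 liver arrays and between 6.774 and 6.775 on the 7 BAT arrays, so the arrays of a tissue were nearly alike and the tissues stood apart. The authors' summary, the distribution free weighted method (DFW), leaves very little spread between arrays of a tissue. The median SD of a probe set was 1.02e-05 over the liver arrays and 9.52e-06 over the BAT arrays, on a log scale whose base is not given and which is read here as log2. With so little spread, 45004 of the 45037 probe sets, or 99.9%, differed between the tissues in limma (adjusted p under 0.05), whatever the size of the difference. The spread between arrays does not cover an error made by summarizing the tissues apart, so a standard error on this scale is too small for a comparison of tissues. The RNAs and bacterial transcripts that this kind of assay adds to each sample or hybridization in set amounts give a technical measure of it. Their 45 probe sets differed between liver and BAT by -0.76 to 0.56 log units, with a median of -0.19, and 0 of them reached 1. The control probe sets for beta-actin differed by -0.75 to -0.74 and those for Gapdh by -0.56 to -0.33, while those for 18S rRNA, which is no mRNA, differed by 0.45 to 1.67. The 3′ probe set of beta-actin exceeded the 5′ one by 1.09 in liver and by 1.102 in BAT, and that of Gapdh by -0.13 in liver and by -0.23 in BAT. Differences are therefore given as the liver mean minus the BAT mean in log2 units, and a gene is called higher or lower in liver only if it passed 1 log unit in limma's treat test at an adjusted p under 0.05. A difference of log units between separately summarized tissues is not a calibrated fold change. Fewer cells of a type and less RNA per cell cannot be told apart in whole tissue.

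By this call 2042 probe sets were higher in liver (4.53% of those tested) and 2227 were lower (4.94%). With 1 probe set per gene, 1240 genes were higher (6.82%) and 1275 were lower (7.01%). The numbers were close, but the liver side reached further. Differences of over 3 log units toward liver were measured for 387 genes, against 124 toward BAT, and differences of over 5 for 158 genes, against 16. The median gene differed by -0.04, and the quartiles of all genes were -0.34 and 0.21, which is within the range of the added controls. Of the called genes, 1470 had more than 1 probe set, and in 77.4% of these all probe sets pointed one way. In 5 genes (*Aldh2*, *Epb41l5*, *Gphn*, *Malat1* and *Taok1*, named because of this) another probe set was called in the opposite direction. The size of a difference also depends on the probe set, and of 181 genes called among those chosen by the rule for named genes, 33 moved by over 1.5 times when all probe sets of a gene were averaged.

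**Figure D1:**
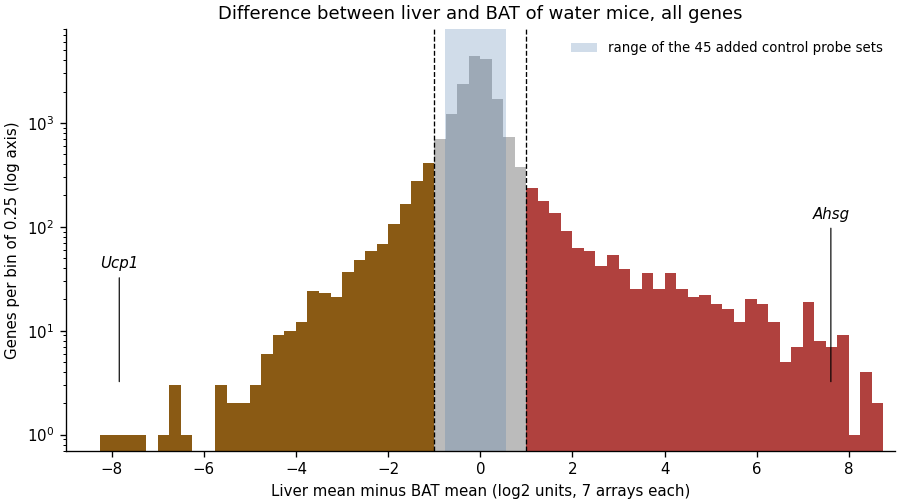
The number of genes (log axis) is plotted against the liver mean minus the BAT mean in log2 units, over 7 arrays each, with bins of 0.25. Bins past 1 log unit are coloured red toward liver and brown toward BAT, the blue band is the range of the added controls (-0.76 to 0.56), and the liver tail reaches 8.62 while the BAT tail reaches -8.15.

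Both markers stood at the ends of this distribution. *Ahsg* lay at 14.07 on the lowest, the median and the highest of the 7 liver arrays, against 6.46 on the lowest, the median and the highest of the 7 BAT arrays. The difference of 7.61 had a two-sided exact permutation p of 0.000583, the smallest that 3432 splits of 14 arrays can give. *Ucp1* lay at 6.39 on all 7 liver arrays and at 14.22 on all 7 BAT arrays, a difference of -7.83 with the same exact permutation p of 0.000583. The groups did not overlap for either gene. The splits treated the 14 arrays as independent and used no pairing, although the paper counts 7 water mice in all. Any gene without overlap gets this p, and both genes were taken as labels of the tissues, so the p adds no further support. In WAT, *Ahsg* averaged 6.31 and *Ucp1* 6.36, so that *Ucp1* in WAT lay at the level of liver. All 7 measured hepatocyte markers were higher in liver, by 7.05 to 8.44, and their BAT means lay between 6.07 and 6.77, around the median of a BAT array. Of 6 brown adipocyte markers, *Ucp1*, *Cidea*, *Cox8b* and *Cox7a1* were lower in liver, whereas *Elovl3* differed by 1.01 and *Dio2* by 0.04, neither passing the test. *Ahsg*, *Ucp1* and the called markers did not go against the label of either tissue, while *Elovl3* leaned toward liver without a call.

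Genes of secreted plasma proteins and of lipoprotein and drug metabolism were furthest toward liver. *Serpina1c*, 1 of the α1-antitrypsin genes of the mouse, had the largest difference of all, at 14.82 in liver and 6.20 in BAT (8.62). *Fabp1*, the fatty acid binding protein of the liver, followed at 14.74 in liver and 6.17 in BAT (8.57), and albumin (*Alb*) lay at 15.004 in liver and 6.57 in BAT (8.44). *Cyp3a11*, which oxidizes many drugs and steroids, lay at 14.42 in liver and 6.01 in BAT (8.41). These 4 genes were at the upper end of the scale on every liver array and within the lower part of it on every BAT array. The fibrinogen chain genes *Fgg* (8.27) and *Fga* (7.83), the apolipoprotein genes *Apoa2* (8.27), *Apoa1* (7.86) and *Apoh* (7.88), *Ambp* (8.04), the precursor of α1-microglobulin and bikunin, and *Ttr* (7.94), which carries thyroid hormone, came next. *Cyp2c29* (7.96), *Mup3*, a major urinary protein that binds pheromones (7.93), the aldo-keto reductase *Akr1c6* (7.89) and *Serpina1b* (7.81) completed the 15. Major urinary proteins, serpins and these P450 genes belong to families of near-identical copies, so their probe sets can read more than 1 member. No range over the 7 liver arrays exceeded 6.19e-05 among these 15 genes, and their liver means lay between 13.83 and 15.004, with BAT means between 5.87 and 6.88. In WAT 14 of the 15 lay within 1 unit of BAT, and the exception was *Serpina1b*, with a WAT mean of 10.02 against 6.88 in BAT.

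Genes of heat production and of fat storage were furthest toward BAT. Adiponectin (*Adipoq*), a hormone of adipocytes, had the largest difference, at 5.89 in liver and 14.04 in BAT (-8.15). After *Ucp1*, *Cidea*, a protein of the lipid droplet, lay at 6.32 in liver and 14.05 in BAT (-7.73). *Cox8b*, a subunit of cytochrome c oxidase found in muscle and brown fat, lay at 6.62 in liver and 14.08 in BAT (-7.46). *Pdk4*, the kinase that shuts off pyruvate dehydrogenase, lay at 6.27 in liver and 13.15 in BAT (-6.88). Then followed *Prkar2b* (-6.67), a regulatory subunit of protein kinase A, *Cox7a1* (-6.63), a further oxidase subunit of muscle and brown fat, *Fabp4* (-6.59), the fatty acid binding protein of adipocytes, and *Cav1* (-6.39), the coat protein of caveolae. *Gpx3*, a secreted glutathione peroxidase (-5.60), *Aoc3*, an amine oxidase of the adipocyte surface (-5.53), *Slc36a2*, an amino acid transporter (-5.50), the galectin *Lgals1* (-5.30), *Adig*, an adipocyte membrane protein (-5.26), and fatty acid synthase *Fasn* (-5.05) closed this group. The 15 genes had BAT means between 11.60 and 14.58 and liver means between 5.89 and 9.07. The highest liver mean was that of *Fasn*. WAT divided these genes. *Adipoq* (14.39), *Fabp4* (14.63) and *Cav1* (13.81) were among 6 genes that lay within 1 unit of BAT in WAT. *Ucp1* (6.36), *Cidea* (6.83) and *Cox7a1* (6.91) were the 3 genes within 1 unit of liver there. The WAT arrays were also summarized apart, and these levels are given as a description. For the 30 genes at both ends, the SE of the difference ran from 9.1e-07 to 0.00107, and the limma treat adjusted p was at most 5.78e-39, values that rest on the compressed spread.

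**Figure D2:**
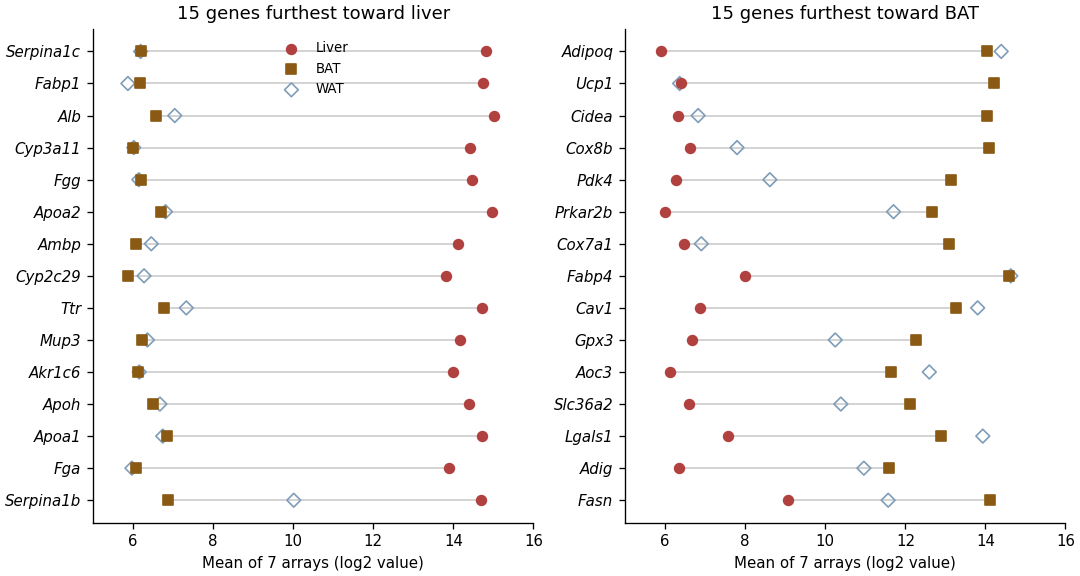
Means of 7 arrays (log2 value) in liver (circles), BAT (squares) and WAT (open diamonds) are shown for the 15 genes with the largest differences toward liver (left) and the 15 toward BAT (right). In the left panel WAT sits beside BAT except for *Serpina1b*, and in the right panel WAT ranges from the level of liver (*Ucp1*, 6.36) to that of BAT (*Fabp4*, 14.63).

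Plasma proteins and lipoproteins were almost without exception higher in liver. All 22 measured plasma protein genes were called higher, with a median difference of 7.05, against a median of -0.04 over all genes. The smallest differences belonged to *Hp*, haptoglobin (1.84), *Orm1*, orosomucoid (2.67), and *Rbp4*, the retinol carrier (3.23), whose BAT means of 12.06, 10.46 and 10.94 were far above the median of the BAT arrays. Of 15 genes of apolipoproteins and lipoprotein assembly, 14 were higher, with a median of 5.98. *Apob*, the core protein of very low density lipoprotein, differed by 7.47, *Mttp*, which loads lipid onto it, by 3.18, and *Apoc1* by 1.86. *Apod*, which is made in many tissues outside the liver, differed by -0.88. Of 29 coagulation and complement genes, 27 were higher, with a median of 5.25. They were led by plasminogen *Plg* (7.53), the complement component *C9* (7.17) and prothrombin *F2* (7.07). The lowest were the C1q chains, which macrophages make, with *C1qc* at 1.01 just past the test and *C1qb* at 0.99 and *C1qa* at 0.71 not past it. Both measured major urinary protein genes were higher, *Mup3* by 7.93 and *Mup5* by 3.15.

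The disposal of nitrogen and amino acids was also on the liver side, with the exception of branched-chain amino acids. Of 10 urea cycle and ammonia genes, 7 were higher and 1 was lower, with a median of 3.62. Arginase *Arg1* (7.47), carbamoyl phosphate synthetase *Cps1* (7.43) and ornithine transcarbamylase *Otc* (7.02) were furthest toward liver. Glutamine synthetase *Glul*, which fixes ammonia as glutamine, was lower in liver (11.46) than in BAT (12.84), with a difference of -1.38. *Ass1*, argininosuccinate synthetase, read 7.04 in liver and 6.51 in BAT (0.53) with its only probe set, and *Arg2*, the mitochondrial arginase, differed by 0.52. Of 26 genes of amino acid breakdown, 25 were higher, with a median of 4.42. The tryptophan dioxygenase *Tdo2* (7.63), *Hpd* of tyrosine breakdown (7.09) and *Gnmt*, which uses up methyl groups (7.02), led them, and *Gpt* (1.43) and *Oat* (1.17), 2 aminotransferases, were the lowest of those called. *Gcsh* of the glycine cleavage system differed by -0.11. Of 21 genes of branched-chain amino acid breakdown, by contrast, 1 was higher and 5 were lower, with a median of -0.41. *Ppm1k*, the phosphatase that activates the branched-chain ketoacid dehydrogenase, was higher (1.76), while *Bckdk*, the kinase that inactivates it, was lower (-1.52). *Dld*, a subunit shared with pyruvate dehydrogenase (-2.40), and *Hibch* of valine breakdown (-1.45) were lower as well. *Acadsb* (0.65) and *Ivd* (0.32) did not pass the test. With the mean of all probe sets of a gene, 3 of these genes were lower.

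Bile acid and drug metabolism followed the same side. Of 19 bile acid genes, 18 were higher, with a median of 3.87, with the uptake carrier *Slco1b2* (7.14), *Slc27a5*, which activates bile acids (6.59), and the sodium-dependent uptake carrier *Slc10a1* (5.94) at the high end. With the mean of its 5 probe sets *Slco1b2* differed by 3.87. The receptor gene *Nr0b2* (1.77), *Scp2* (1.13) and *Hsd17b4* (0.24), of which the last 2 also act in peroxisomal oxidation, were at the low end. *Scp2* lost its call with the mean of its probe sets (0.35). Of 25 cytochrome P450 genes of families 1 to 3, 19 were higher, with a median of 4.78. Beside *Cyp3a11* and *Cyp2c29*, *Cyp3a25* differed by 7.79. *Cyp2b9* (0.14) and *Cyp3a16* (0.17) did not pass the test. *Cyp1b1*, a P450 found mainly outside the liver, was lower (-1.01), but this call was lost with the mean of its probe sets (-0.45). Of 17 regulators of hepatocytes, 13 were higher, with a median of 2.76. The nuclear receptor *Hnf4a* (4.89), the bile acid receptor *Nr1h4* (3.87) and *Creb3l3* (3.75) led them, whereas *Atf5* (0.37) and *Cebpa* (-0.35), which adipocytes also use, did not pass the test, and *Esrrg*, an estrogen-related receptor of oxidative tissues, was lower (-1.99).

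The genes of brown fat and adipocytes made up the opposite pattern. Of 30 thermogenesis genes, 18 were lower in liver and 0 were higher, with a median of -1.81. *Elovl3*, an elongase known for its rise in cold-exposed brown fat, lay at 9.53 in liver and 8.52 in BAT (1.01), and *Fgf21* and *Bmp8b* each differed by 0.34. In BAT *Fgf21* read 6.41 and *Bmp8b* 6.73, below the median of a BAT array, so these 2 genes say little about BAT. *Dio2*, the deiodinase of brown fat, is an example of probe sets that disagree. The brightest of its 3 probe sets differed by 0.04, and another differed by -1.57. Of 21 regulators of brown adipocytes, 10 were lower and 1 was higher, with a median of -0.61. *Pparg*, the main regulator of adipocytes (-4.49), *Ebf1* (-3.70) and *Ebf2* (-3.42) were lower in liver, *Plac8* was higher (1.62), and *Ppara* (0.38) and *Epsti1* (0.32) did not pass the test. Of 28 adipocyte genes, 23 were lower and 1 was higher, with a median of -3.15, or -2.09 with the mean of the probe sets of each gene. The exception was *Rbp4*, which is also a plasma protein of the liver, and *Nnat* (-0.36), *Cebpa* (-0.35) and *Lep*, leptin (-0.74), did not pass the test. Leptin read 6.40 in liver and 7.14 in BAT.

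Fuel handling split within pathways. Of 13 genes of gluconeogenesis and glycogen, 6 were higher and 3 were lower, with a median of -0.16. Toward liver stood *Fbp1*, fructose bisphosphatase (7.16), the glucose transporter *Slc2a2* (6.35), the glucose 6-phosphatase *G6pc* (4.54), its transporter *Slc37a4* (3.52), *Got1* (3.41) and the glycogen synthase *Gys2* (3.23). Toward BAT stood *Pck1*, phosphoenolpyruvate carboxykinase, which in fat makes glycerol for triacylglycerol (-2.14), the glycogen phosphorylase *Pygl* (-1.64) and mitochondrial *Pck2* (-1.33). *Pck1* lay at 10.94 in liver and 13.08 in BAT. *Pck2* lost its call with the mean of its probe sets (-0.91). Of 3 ketone body genes measured (median -0.46, or -0.82 with the mean of probe sets), *Bdh1*, the hydroxybutyrate dehydrogenase, was higher (5.32), *Oxct1*, which ketone-using tissues need and hepatocytes lack, was lower (-4.59), and *Acat1* differed by -0.46.

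Fatty acid synthesis split by step. Of 21 lipogenesis genes, 5 were higher and 10 were lower, with a median of -0.98. Lower were the enzymes that build the chain and supply its precursors, among them *Fasn* (-5.05), which lay at 9.07 in liver and 14.12 in BAT, acetyl-CoA carboxylase *Acaca* (-3.61) and the elongase *Elovl6* (-3.12). Higher were the 3 elongases *Elovl2* (6.06), *Elovl5* (1.85) and *Elovl1* (1.26) and the desaturases *Fads1* (3.53) and *Fads2* (3.40). *Elovl2*, *Elovl5*, *Fads1* and *Fads2* are known for making long polyunsaturated fatty acids. *Elovl1* lost its call with the mean of its probe sets (0.95). Of 26 genes of beta-oxidation, 4 were higher and 14 were lower, with a median of -1.02. Carnitine acetyltransferase *Crat* (-3.69), *Hadhb* of the mitochondrial trifunctional protein (-2.25) and *Acadl* (-1.89) were lower. *Cpt1a*, the liver form of the enzyme that admits fatty acids to mitochondria (3.64), the peroxisomal *Acaa1b* (3.73) and *Ehhadh* (1.98), and the thioesterase *Acot1* (1.51) were higher. Of the 4 genes that were higher, 2 thus act in peroxisomes.

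Among mitochondrial genes, most of those of the TCA cycle were lower in liver, while the carriers were divided. The respiratory chain leaned toward BAT by smaller amounts, with 52 of 56 genes below 0. Of 21 genes of pyruvate dehydrogenase and the TCA cycle, 17 were lower and 1 was higher, with a median of -1.86. Citrate synthase *Cs* lay at 9.62 in liver and 13.52 in BAT (-3.90), and *Idh3a* (-3.74) and *Pdha1* (-3.53) followed. *Suclg2*, the subunit of the GDP-forming succinyl-CoA synthetase, was higher (1.69), *Fh1* (-0.99) and *Sdhc* (-0.97) did not reach 1, and *Sdhd* (-1.34) did not pass in the fit that leaves the array number out, though it did with that number as a block (limma treat adjusted p 0.036). Of 56 respiratory chain and ATP synthase genes, 28 were lower and 2 were higher, with a median of -1.01, which lies at the threshold itself. For this reason the count depended on scaling, and it was 43 after quantile normalization. The range was narrow on the low side, with *Ndufs1* (-1.93), *Cycs*, cytochrome c (-1.78), and *Uqcrc2* (-1.74) as the lowest. The 2 exceptions were *Atp5g1* (4.07) and *Atp5g3* (1.09), which code for the same subunit c of ATP synthase, while *Atp5j* differed by 0.98. *Atp5g1* lay at 12.01 in liver and 7.95 in BAT with its brighter probe set, and its other probe set differed by 0.13. Of 20 genes of mitochondrial carriers and coenzyme Q, 4 were higher and 6 were lower. *Slc25a4*, an ADP/ATP carrier of muscle and heart (-4.59), *Slc25a35* (-3.65) and *Coq8a* (-2.69) were lower, and *Slc25a47*, a carrier known from liver (5.95), the dicarboxylate carrier *Slc25a10* (2.77), *Slc25a12* (1.53) and *Slc25a45* (1.20) were higher. *Slc25a12* lost its call with the mean of its probe sets (0.54).

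General cell machinery differed less than most of the groups above. Over all genes, 6.82% were called higher in liver and 7.01% lower. Of 28 proteasome genes, 0 passed 1 log unit in either direction in limma's treat test, with differences between -0.59 (*Psmd4*) and 0.79 (*Psma4*) and a median of -0.07. At any size 28 of the 28 passed limma, beside 99.9% of all probe sets. Of 16 ribosomal protein genes, 1 was called, *Rps2* (1.32), and the others lay between -0.41 (*Rps20*) and 0.61 (*Rps18*). Of 18 clock genes, 2 were higher (*Rora*, 1.54, and *Nfil3*, 1.03) and 1 was lower (*Per3*, -1.12), and the calls of *Rora* (0.87) and *Per3* (-0.28) were lost with the mean of their probe sets. *Cry2* (0.46), *Clock* (-0.45) and *Per1* (-0.57) did not pass the test. These lists lay largely within or close to the range of the added controls, as did the quartiles of all genes (-0.34 and 0.21). Small differences were thus not particular to them.

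Secreted regulators, iron, matrix and position genes were mixed. The shares over all genes were 6.82% called higher in liver and 7.01% lower. Of 18 genes of the IGF system and secreted regulators, 12 were higher and 3 were lower, with a median of 1.90. *Lect2* (4.83), *Igfbp4* (4.36) and angiotensinogen *Agt* (4.31) were highest, and *Igfbp5* (-2.62), the lipase inhibitor *Angptl4* (-1.29) and follistatin *Fst* (-1.17) were lower. With the mean of their probe sets *Angptl4* (-0.78) and *Fst* (-0.73) were not called. Of 19 genes of iron and haem, 9 were higher and 1 was lower, with a median of 1.06. The haem carrier hemopexin *Hpx* (7.34), the iron hormone hepcidin *Hamp* (5.70) and its upstream receptor *Tfr2* (4.37) were higher. *Alas1*, the first enzyme of haem synthesis, was lower (-1.48), though not with the mean of its probe sets (-0.82), and *Tfrc* (-0.52) and *Slc11a2* (-0.47), which take up iron, did not pass. Of 21 collagen and matrix genes, 15 were lower and 1 was higher, with a median of -2.35. *Col3a1* (-3.98), *Col4a1* (-3.81) and *Postn* (-3.79) were lowest, *Fn1*, fibronectin, which hepatocytes secrete into plasma, was higher (4.24), and *Bgn* (0.07) and *Dcn* (-0.37) did not pass. Of 21 Hox genes, which keep the position of cells along the body axis, 4 were lower and 0 were higher by treat. They were *Hoxa5* (-1.72), *Hoxd8* (-1.48), *Hoxc5* (-1.26) and *Hoxc4* (-1.11), all of them below 9 on the array scale in both tissues, and *Hoxc5* lost its call with the mean of its probe sets (-0.56). *Hoxc8* (-0.02), *Hoxc9* (0.14) and *Hoxc10* (0.15) hardly differed. The liver means of all 21 Hox genes lay between 5.97 and 7.18, around the median of a liver array, and their BAT means between 6.12 and 8.89.

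**Figure D3:**
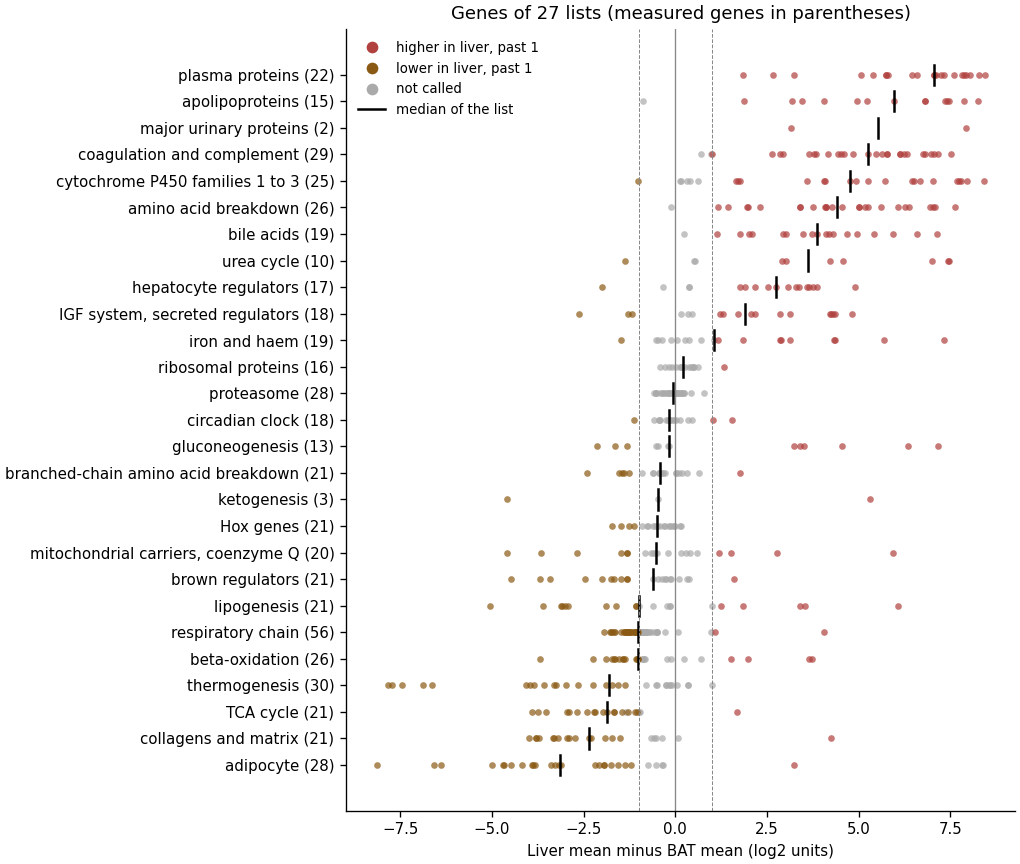
Each point is 1 gene at its liver mean minus BAT mean (log2 units), coloured red where called higher by more than 1, brown where called lower and grey where not called, and black bars are list medians. Lists run from adipocyte genes (median -3.15) at the bottom to plasma proteins (7.05) at the top, and the proteasome stays within 1 unit of 0.

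Pairs of related genes showed the division gene by gene. Of 28 pairs in which one form is known for the liver and the other for fat, muscle or most tissues, both members were measured in 19. In 8 of them the liver form was higher in liver and the other form lower. They were *Fabp1* (8.57) and *Fabp4* (-6.59), *Fbp1* (7.16) and *Fbp2* (-1.71), the glucose transporters *Slc2a2* (6.35) and *Slc2a4* (-3.91), and the glycerol channels *Aqp9* (5.20) and *Aqp7* (-3.38). The others were the lipid droplet proteins *Cideb* (4.15) and *Cidea* (-7.73), the glycogen synthases *Gys2* (3.23) and *Gys1* (-2.59), the fatty acid transporters *Slc27a2* (2.53) and *Slc27a1* (-1.73), and the pyruvate kinases *Pklr* (1.55) and *Pkm* (-4.21). In 3 pairs the liver form was higher and the other was not called, namely *Arg1* (7.47) and *Arg2* (0.52), *Elovl2* (6.06) and *Elovl3* (1.01), and *Dio1* (1.98) and *Dio2* (0.04). In 4 pairs the liver form was not called and the other was lower in liver. They were *Ppara* (0.38) and *Pparg* (-4.49), *Scd1* (-0.23) and *Scd2* (-1.89), *Irs2* (-0.32) and *Irs1* (-1.42), and *Cox7a2* (-0.50) and *Cox7a1* (-6.63). Both members were lower in 3 pairs, *Acss2* (-1.61) and *Acss1* (-3.63), *Cox8a* (-1.68) and *Cox8b* (-7.46), and the acetyl-CoA carboxylases *Acacb* (-3.08) and *Acaca* (-3.61). The stearoyl-CoA desaturases depended on the probe sets, since with their mean *Scd1* was called (-1.04) and *Scd2* was not (-0.74). Glycogen phosphorylase ran against its names, as *Pygl*, called the liver form, was lower in liver (11.47) than in BAT (13.12), with a difference of -1.64, and *Pygm*, the muscle form, differed by 0.72. Where only 1 member was measured, *Mat1a* (6.37) and *Cpt1a* (3.64) were higher, and *Ucp1*, *Lpl* (-4.68), *Oxct1* (-4.59), *Hk2* (-4.32), *Aldoa* (-3.86) and *Angptl4* (-1.29) were lower in liver.

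**Figure D4:**
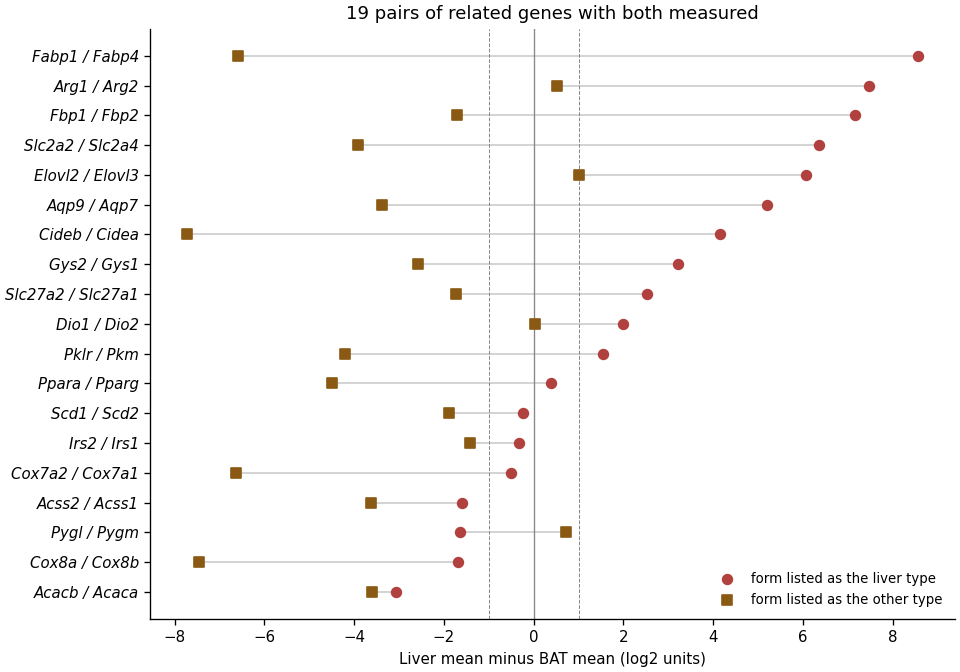
For 19 pairs of related genes, the liver mean minus the BAT mean (log2 units) is shown for the form listed as the liver type (circles) and for the other form (squares), with dashed lines at 1 and -1. The circle lies right of the square in every pair but *Pygl* (-1.64) and *Pygm* (0.72).

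Markers of other cell types differed between the tissues for some of the types. *Clec4f* (2.71), *Vsig4* (4.16) and *Cd5l* (4.25), of 8 markers of Kupffer cells, the macrophages of the liver, were higher in liver. So were *Clec4g* (4.61), *Stab2* (2.64), *Oit3* (2.35) and *Fcgr2b* (1.29), of 6 markers of the sinusoid. Of 7 general endothelial markers, *Emcn* (-1.503) and *Cdh5* (-1.30) were lower in liver, *Cdh5* not with the mean of its probe sets (-0.76). Of 7 markers of stellate and mural cells, the stellate genes *Reln* (2.95) and *Lrat* (1.74) were higher and the mural genes *Pdgfrb* (-2.67), *Rgs5* (-2.45) and *Acta2* (-2.06) were lower, *Acta2* not with the mean of its probe sets (-0.57). *Pmp22* (-2.75) and *Mbp* (-1.85), of 4 measured markers of nerve and its sheath, were lower, while *Sox10* (-0.43) and *Th* (-0.31) were not called. *Mrc1* alone was called among 6 other macrophage markers (1.96, higher in liver), while 4 of the 6 pointed toward BAT. Their median was -0.30. Among 4 measured erythroid markers *Alas2* alone was called (3.43), with a list median of 0.49. Among 6 mesothelial markers *Krt8* alone was called (3.92), a keratin that hepatocytes also make, and 3 of the 6 lay below 0. None of 9 lymphocyte and 5 cholangiocyte markers was called by treat, and each differed by under 1 unit, between -0.73 and 0.42. Over all genes, 6.82% were called higher and 7.01% lower. Lymphocyte marker means lay between 6.43 and 7.47 in liver and between 6.20 and 7.78 in BAT. Those of cholangiocytes lay between 5.79 and 6.80 in liver and between 5.81 and 7.08 in BAT. These levels lie around the median of an array, so the missing calls do not show these cells to be equally common. The part of these cell types in the differences above was not tested.

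Skeletal muscle genes varied between the BAT arrays. The actin gene *Acta1* lay at 6.76 on all 7 liver arrays, and on the BAT arrays numbered 1 to 7 at 15.10, 8.58, 13.82, 7.32, 8.27, 8.27 and 11.61. BAT arrays 1, 3 and 7 were thus far above the other 4, and no BAT array reached as low as liver. *Mylpf*, a myosin light chain of fast muscle, lay at 6.67 on all liver arrays and at 12.65, 7.77, 11.58, 7.23, 7.52, 7.47 and 9.66 on the BAT arrays, with the same 3 arrays high. The mean over 10 muscle markers was 6.35 on every liver array and between 7.21 and 10.53 on the BAT arrays. Of these markers *Myl1* alone passed the test (-3.64), and *Acta1* (-3.67), *Myh1* (-2.86) and *Mylpf* (-2.45) did not, because of the spread in BAT. Without BAT arrays 1, 3 and 7 the difference of *Acta1* was -1.35 and the median of the 10 markers -0.95, against -2.02 with them. Among the 15 genes furthest toward BAT, the widest range over the 7 BAT arrays was 0.00163. Of the 30 thermogenesis genes, 27 had a range under 0.1 in BAT, and the other 3 were *Ckmt2* (0.908), *Atp2a1* (0.877) and *Cox6a2* (0.646), which skeletal muscle also expresses and none of which was called. Without these 3 arrays 2039 probe sets were higher and 2224 lower in liver, and none of the 30 genes at the ends changed its call. Of all named genes 3 lost theirs, *Alas1*, *Cyp4a14* and *Tmem45b*, whose difference was then -3.26.

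Beside *Acta1* and *Mylpf*, the 10 genes with the widest range in BAT were the muscle genes *Tnnc2*, *Myh4*, *Ttn*, *Myh1*, *Pvalb*, *Tnnt3* and *Ckm*, together with *Tmem45b*. *Tmem45b*, a membrane protein gene, lay at 6.17 on all 7 liver arrays. On the BAT arrays 1 to 7 it lay at 11.41, 11.38, 11.28, 7.58, 7.16, 11.58 and 11.54, so that 5 arrays were high and arrays 4 and 5 low. The WAT arrays 4 and 5 were low as well, at 7.39 and 7.44, against 10.94 to 11.52 on the other WAT arrays. *Sdhd*, a subunit of succinate dehydrogenase, lay at 8.12, 6.77, 8.08, 8.15, 8.15, 8.18 and 8.39 on the liver arrays 1 to 7. On the BAT arrays it lay at 9.54, 7.56, 9.56, 9.59, 9.60, 9.52 and 9.86. Array 2 was the lowest of both tissues, and also of WAT, at 6.58.

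In liver the widest ranges belonged to other genes. *BC023105* ran from 7.06 over a median of 7.86 to 9.53 in liver and stayed at 6.54 to 6.56 in BAT. *Cyp4a14*, a fatty acid hydroxylase, ran from 6.84 over 8.11 to 9.15 in liver and lay at 6.06 on all BAT arrays. *Gstp3*, a glutathione transferase, lay at 9.04 and 8.48 on liver arrays 4 and 5 and between 10.16 and 10.26 on the other 5, against 6.92 in BAT. These 3 genes were higher in liver on every array, with ranges that differed widely. *Nnmt*, nicotinamide methyltransferase, ran from 7.22 over 7.53 to 8.37 in liver and lay at 8.17 in BAT, so that the groups overlapped. *Alas1* ran from 8.60 over 8.89 to 9.47 in liver and lay at 10.45 to 10.46 in BAT. *Rad51b*, *Cxcl9*, *Cyp2c23* and *Vnn1* were the others of the 10, with *Sdhd*. Ranges of over 1 unit were found for 6 genes in liver, 18 in BAT and 1 in both, which was *Sdhd*.

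**Figure D5:**
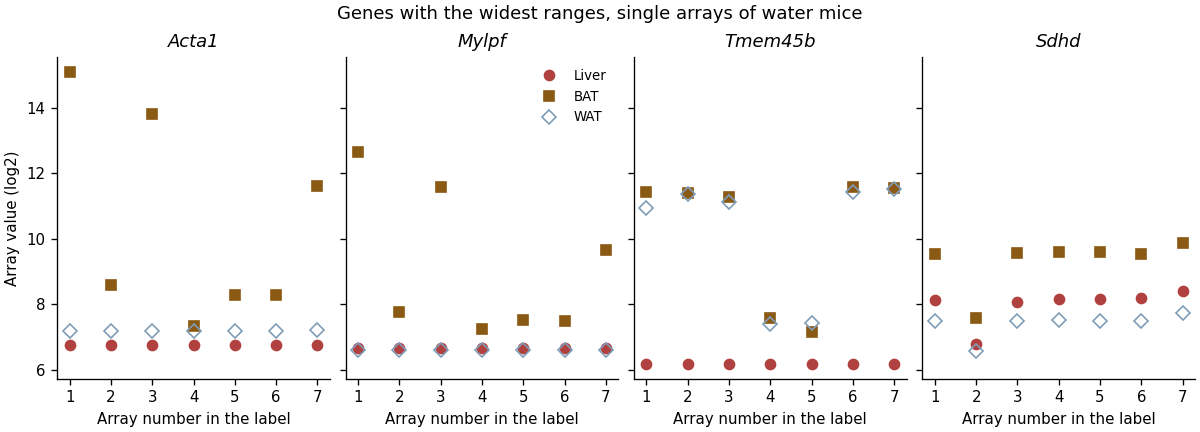
Array values (log2) of 4 genes are plotted against the array number in the label, for liver (circles), BAT (squares) and WAT (open diamonds). *Acta1* and *Mylpf* are high on BAT arrays 1, 3 and 7, *Tmem45b* is low on arrays 4 and 5 of both fat tissues, and *Sdhd* is low on array 2 of all 3 tissues.

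The same comparison was made in the mice given VAAM, whose 7 liver and 7 BAT arrays had no part in the comparison above but were summarized together with the water arrays of each tissue. In these mice 2038 probe sets were higher in liver (4.53%) and 2228 were lower (4.95%). Of the probe sets called in water mice, 2037 of 2042 were higher and 2226 of 2227 were lower in VAAM mice as well. All 30 genes at the ends were called in the same direction, and none of their differences moved by more than 0.00364. The shared summary leaves very little spread between arrays of a tissue, so this agreement is no independent repeat of the comparison. A test of whether the tissue difference itself changed with VAAM (limma interaction over 28 arrays) called 1 probe set, or 0.00222% of those tested, and 3148 had an unadjusted p under 0.05. The median change of the difference was 8.1e-06 log units, and it exceeded 0.1 for 34 probe sets. Some of these belonged to the genes above that varied between arrays, such as *Tmem45b* (-0.80), *Gstp3* (-0.79), *Acta1* (-0.53) and *Nnmt* (0.47), none of which passed the limma interaction test.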

How the data were processed

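The deposited values are log values per probe set, read here as log2, which the authors obtained in R by a summary named distribution free weighted (DFW). The paper gives another R version than the submitters' processing notes, which name R 2.7.2. The base of the logarithm and any background correction are not given in the sources used here. The 14 water arrays of liver and BAT were compared in limma 3.58.1 (R 4.3.3) without a filter, with Benjamini-Hochberg adjusted p over 45037 probe sets at 0.05 and treat at 1 log unit. In simulated data of 45037 probe sets, treat called 100% of differences of 1.5 and 0% of those of 0.5. The simulated noise had only the spread between arrays of a tissue. It therefore gives no error rate for tissues that were summarized apart. The number of arrays limits the precision, and the labels do not state separate litters or batches. Genes were named by the platform annotation (932 probe sets name several genes, 9160 none) and represented by their brightest probe set (mean over the 14 arrays). Named were the 15 genes at each end, the 3 highest and 3 lowest of each of 27 lists and any called against its median, 28 pairs, and the 10 genes with the widest range per tissue. Of 690 list genes 623 were measured. Members and lists were chosen with earlier results of these data known. Exact permutations used scipy 1.17.1 (Python 3.11.15), and figures used matplotlib 3.10.9. Alternatives were other scalings, priors, weights, a filter, a replicate block, 1 fit over 42 arrays, gene means, the VAAM mice, a threshold of 2 and leaving out arrays.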

Additional observations from a re-analysis of the deposited data

Results flagged for a closer look

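Of 44 groups of 7 arrays looked at (the 20 genes with the widest ranges, *Ahsg* and *Ucp1*, in both tissues), 4 had 1 array far from the others by Dixon's ratio of the gap to the whole range, for which chance gives about 1 in 20. *Sdhd* on array 2 was the lowest in liver (6.77, next 8.08, ratio 0.809) and in BAT (7.56, next 9.52, ratio 0.852). *Cyp2c23* on liver array 2 was the highest (9.32, next 8.83, ratio 0.792). *Gstp3* on BAT array 6 was the lowest (ratio 0.599), with a whole range of 0.000552 log units. The 1 probe set whose tissue difference changed with VAAM in the limma interaction test names *Apmap*, a membrane protein of adipocytes, with a change of -5.61e-05 log units (adjusted p 0.036, against a difference of -0.85 in both VAAM and water mice).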

How the results depend on the processing

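The counts past 1 log unit were within 1.5 times the reported ones under every alternative but a threshold of 2 log units, which left 899 probe sets higher and 572 lower in liver. Quantile normalization gave 2055 and 2209, median centring 2133 and 2058, and the replicate block 2039 and 2228. Leaving out 1 array at a time gave 2039 to 2043 higher, 2226 to 2228 lower and 44999 to 45008 at any size. The probe sets above the median level gave 22506 calls at any size, because fewer were tested. Whether the numbers pair liver and BAT arrays is not stated. Over all probe sets the deviations of same-numbered arrays correlated at 0.0762 to 0.165, and 5 of 7 numbers correlated best with their own, whereas over 26 probe sets with ranges over 0.05 in both tissues the values were 0.748 to 0.904 and 7 of 7, a hint from the data. Of 702 single-gene values under an alternative, 668 kept direction and call. With the mean of the probe sets, the direction reversed for *Ivd* (-0.31), *Hsd17b4* (-0.72), *Rps20* (0.14), *Bgn* (-0.25), *Dio2* (-0.59), *Cftr* (0.0033), *Sox10* (0.0799) and *Upk1b* (0.0742), and after quantile normalization for *Krt7* (0.0059), none of which was called. *C1qc* was not called after quantile normalization (1.01) or in VAAM mice (1.01), and *Atp5g3* (0.96), *Scp2* (0.90) and *Cyp1b1* (-0.96) were not called after quantile normalization. *Sdhd* was called in VAAM mice (-1.42), and with the replicate block, under which *C1qc* and *Cyp4a14* were not called. With the mean of probe sets 13 of 27 list medians moved by less than 0.2 and 14 by more, none changing sign, among them the major urinary proteins (3.82) and adipocyte genes (-2.09). Of called genes that moved by over 1.5 times but are not given as such in the report, the means of probe sets were 4.45 for *Apoh*, 4.49 for *Mup3*, 4.47 for *Otc*, 3.11 for *Hnf4a*, 2.48 for *Clec4g*, 2.31 for *Cpt1a*, 2.10 for *Atp5g1*, 2.07 for *Fcgr2b*, 1.94 for *Fads1*, 1.60 for *Reln*, -1.01 for *Cox8a*, -1.07 for *Acadl*, -1.22 for *Dld*, -1.23 for *Pck1*, -1.51 for *Acacb*, -1.69 for *Igfbp5*, -1.85 for *Acss1*, -2.32 for *Acaca*, -2.41 for *Ebf1* and -2.43 for *Crat*.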
